A study of Mus musculus with 6 samples.

Results

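The enzymes that commit pyruvate to the citric acid cycle, those that turn the cycle, and genes that refill it or shuttle its intermediates and reducing power were followed as a set of 34 genes in mouse pancreatic islets. All 34 members had a probe set with exactly 1 gene symbol in the platform annotation, out of 18193 genes read in the same way. Each was read at its brightest probe set, the one with the highest mean over 6 arrays. By role, 8 members form or regulate the pyruvate dehydrogenase complex, 15 are enzymes of the cycle, and 11 serve anaplerosis (refilling of the cycle) and the shuttles that carry reducing power between cytosol and mitochondrion. The islets came from male C57Bl6 mice aged 12 weeks, and each of 6 arrays holds total RNA from islets. The control group is labelled Flox (3 arrays) and the other group carries a Tead1 knockout restricted to beta cells (Tead1KO, 3 arrays). Tead1 encodes a DNA-binding transcription factor through which Hippo signalling reaches its target genes. The labels name neither the Cre driver nor a Cre-only control. They do not say whether the animals of an array were pooled, and the flox allele of the controls is not described further. Nothing says that the arrays of a group come from separate animals, so the p-values cover the spread among these arrays, part of which may be technical.

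In beta cells, pyruvate made from glucose enters the cycle by a pair of routes. Pyruvate dehydrogenase oxidises it to acetyl-CoA, and pyruvate carboxylase adds a carbon to give oxaloacetate. Beta cells keep lactate dehydrogenase low and use the carboxylase heavily, and cycle intermediates leave the mitochondrion as citrate, malate or isocitrate and feed NADPH production. The reducing power of glycolysis is passed inward by the glycerol phosphate and malate-aspartate shuttles. This coupling of glycolysis to respiration is known for its part in glucose-stimulated insulin secretion.

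The hybridization controls are transcripts of bacteria and of the bacteriophage P1 cre gene, spiked into each sample. Their mean signal was 10.80 to 12.03 in Flox and 12.18, 11.02 and 13.31 in Tead1KO replicates 1 to 3, all on the log2 scale. Whether RNA of a Cre transgene added to the cre part was not tested. Tead1KO replicate 3 also had the narrowest interquartile range of all probe sets, 2.66 against 2.99 to 3.32 on the other arrays. The targeted gene Tead1 read 7.22, 6.99 and 7.40 in Flox and 6.72, 7.49 and 5.95 in Tead1KO, so the highest and the lowest array were both Tead1KO (log2 difference -0.49, SE 0.36, limma adjusted p = 0.774). A dimmer probe set of Tead1 above background differed by -0.21, with overlapping arrays. Where in the gene these probe sets lie relative to the deleted part is unknown here, so their signals do not check the labels. Of 8 measured beta cell markers, 0 passed the test and 7 lay lower in Tead1KO, and their mean signal was 12.86 to 13.06 in Flox and 12.25 to 12.74 in Tead1KO. Alpha cell markers (3 measured) averaged 12.44 to 12.63 in Flox and 12.51 to 12.75 in Tead1KO. Acinar markers (6 measured) averaged 10.95 and 10.96 in replicate 1 of Flox and of Tead1KO, and 12.22 to 13.09 on the other arrays. The hormone transcripts Ins2 and Iapp read above 15 on every array and differed by -0.005 and 0.03 on the log2 scale. The highest signal in the data, 15.71, was an Ins2 value. Whether signals this bright can still show a difference was not tested. The most negative differences among the beta cell markers were those of Nkx6-1, Ucn3 and Slc2a2. They were -0.95, -0.95 and -0.82 (limma adjusted p = 0.0637, 0.056 and 0.194). Acinar Ctrb1 reached 14.71, so bright hormone transcripts alone do not measure how pure the islets were. In whole islets, fewer cells of a type and less RNA per cell cannot be told apart.

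No member of the set passed the test between Tead1KO and Flox islets. With limma and Benjamini-Hochberg adjustment over all genes, 0 of 34 members had an adjusted p under 0.05, where 0.517% of all genes did, and the lowest adjusted p among members was 0.324. At an unadjusted p under 0.05 there were 3 members (8.82%): Pcx, Idh1 and Pdk1, against 7.41% of all genes. Direction was uneven: 27 members lay lower in Tead1KO and 7 higher, where 51.1% of all genes lay lower. The median log2 difference over the members was -0.21, and over all genes it was -0.01. Bright genes as a whole were tilted the same way: the 7850 genes whose mean signal lay within that of the members (7.12 to 13.33) had a median of -0.12, and 70.4% of them lay lower. Of these 7850 genes, 776 had an unadjusted limma p under 0.05, a larger share than among the members.

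The arrays of the groups did not overlap for 9 members. In 7 (20.6%) all 3 Tead1KO arrays lay below all 3 Flox arrays, and these were Pcx, Idh1, Idh2, Slc25a1, Mdh1, Sdhb and Suclg1. This pattern held for 7.27% of all genes and 11.2% of genes in the members' signal range. In 2 (5.88%) all Tead1KO arrays lay above, Pdk1 and Glud1, a pattern shown by 5.8% of all genes. For a single gene the exact permutation test, two-sided, cannot go below 0.1 with 3 arrays against 3, and it gave 0.1 for each of these 9.

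**Figure D1:**
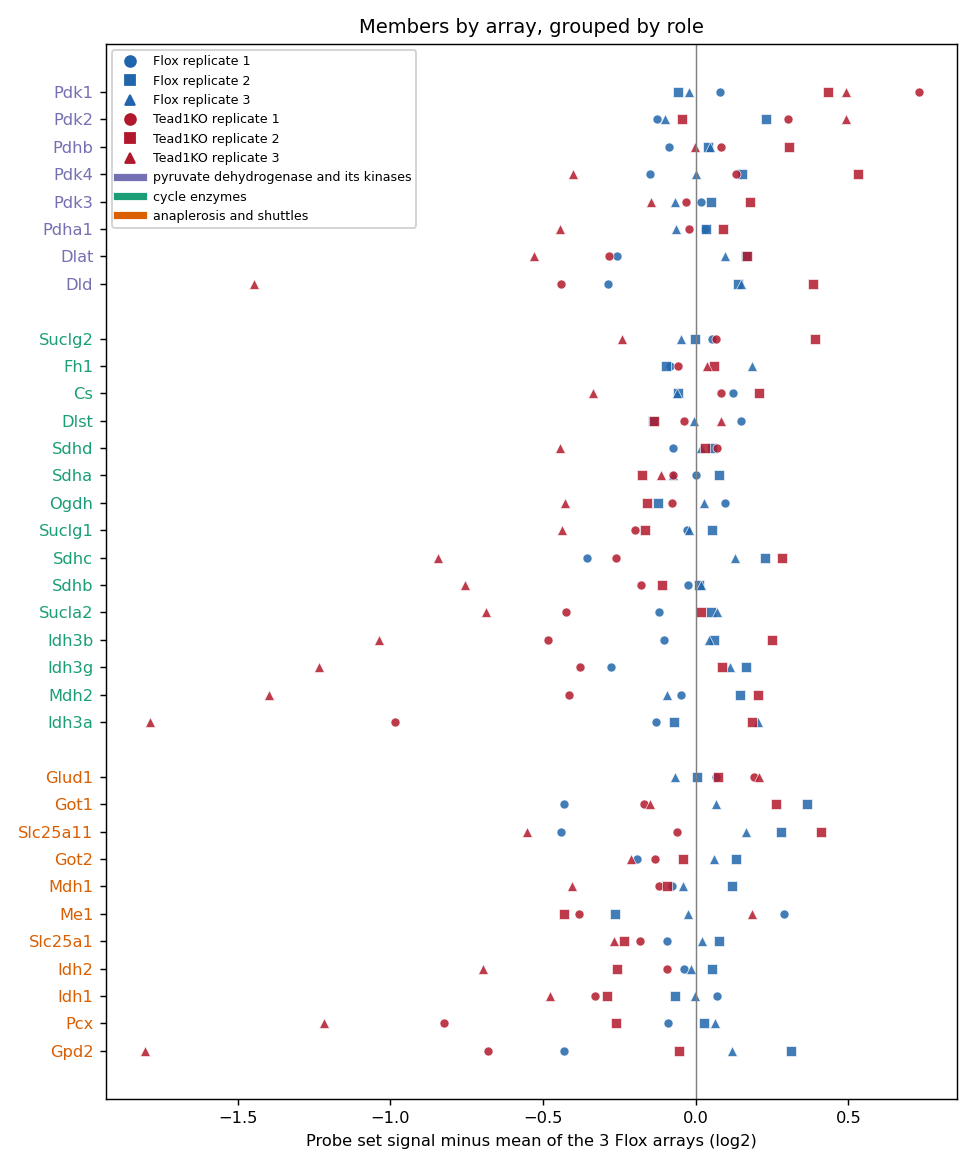
Signal of each of the 34 members in each array as its distance from the mean of the 3 Flox arrays (log2, x axis), ordered within role groups (label colour); Flox arrays are blue, Tead1KO arrays red, and marker shapes stand for the replicate number. Tead1KO replicate 3 (red triangles) is the lowest of the 6 arrays in 25 members, while Pdk1 has all red points to the right of all blue ones and Pcx all to the left.

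Pcx, pyruvate carboxylase, showed the lowest unadjusted p among members that lay lower. It read 10.48, 10.60 and 10.63 in Flox and 9.74, 10.31 and 9.35 in Tead1KO. All Tead1KO arrays were below the Flox arrays, and replicate 2 was nearest to them. The means were 10.57 ± 0.08 and 9.80 ± 0.48 (SD, n = 3 each), a log2 difference of -0.77 (SE 0.24, 95% interval -1.31 to -0.22, limma unadjusted p = 0.0119, adjusted p = 0.394). On the linear scale this is 1.70-fold less signal in Tead1KO. The difference was -0.54 without Tead1KO replicate 3 (adjusted p = 0.396) and -1.02 without Tead1KO replicate 2, where it passed (adjusted p = 0.0352). Over 15 alternatives its adjusted p ran from 0.0352 to 0.998, and its direction was kept in all of them. Pcx has 1 probe set here that carries its symbol alone.

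On the oxidative route, the enzymes of the pyruvate dehydrogenase complex gave no difference that passed. Pdha1, the catalytic alpha subunit, read 10.00, 10.00 and 9.90 in Flox and 9.94, 10.05 and 9.52 in Tead1KO. The groups overlapped, with only Tead1KO replicate 3 apart, and the interval of the log2 difference ran from -0.53 to 0.28. Pdhb, its beta subunit, differed by 0.13 (interval -0.18 to 0.44). Dlat, the acetyltransferase core, differed by -0.22 at its brightest probe set and by -0.41 and -0.26 in the other ones. Dld, the dehydrogenase shared with the oxoglutarate complex, differed by -0.50, but its Tead1KO arrays were spread from 7.40 to 9.24 around the Flox values of 8.57 to 9.001. Without Tead1KO replicate 3 the difference of Dld was -0.03.

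Among the kinases that phosphorylate and switch off this complex, only Pdk1 had arrays that did not overlap between the groups. Pdk1 read 8.08, 7.95 and 7.98 in Flox and 8.73, 8.44 and 8.50 in Tead1KO. Every Tead1KO array was above every Flox array, and both groups were tight. The means were 8.005 ± 0.07 and 8.56 ± 0.16 (SD, n = 3 each), a log2 difference of 0.55 (SE 0.16, interval 0.19 to 0.92, limma unadjusted p = 0.00813, adjusted p = 0.324), or 1.47-fold more signal. Leaving out single arrays moved it only between 0.46 and 0.61, with adjusted p from 0.100 to 0.998. A dimmer probe set of Pdk1 above background differed by 0.12, with overlapping arrays, and the mean of all its probe sets, 2 of them within background, differed by 0.21.

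Pdk4, the kinase induced in fasting, read 8.83, 9.13 and 8.98 in Flox and 9.11, 9.51 and 8.58 in Tead1KO, so that the Tead1KO arrays lay on both sides of the controls (difference 0.09). Pdk2 differed by 0.25 (interval -0.21 to 0.70) and Pdk3 by 0.00 (interval -0.36 to 0.36). Of the 8 members of this group, 4 lay higher and 4 lower, and their median difference was 0.04. Pdp1, a phosphatase that reactivates the complex and is not a member, lay below the Flox arrays on every Tead1KO array, by 0.58 in the means on the log2 scale (limma adjusted p = 0.595). It read 7.70, 7.75 and 7.86 in Flox and 7.25, 7.58 and 6.75 in Tead1KO, with replicate 3 the lowest.

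Of the 15 cycle enzymes, 0 passed, 13 lay lower and 2 higher in Tead1KO, with a median log2 difference of -0.27. Cs, citrate synthase, the entry enzyme often used as a measure of mitochondrial content, read 11.38, 11.20 and 11.20 in Flox and 11.34, 11.47 and 10.92 in Tead1KO. The groups overlapped, the difference was -0.02 and its interval ran from -0.41 to 0.38. Further probe sets of Cs differed by 0.04 and 0.14. Fh1, fumarase, differed by 0.01 (interval -0.30 to 0.33) and Dlst, the succinyltransferase of the oxoglutarate complex, by -0.03 (interval -0.37 to 0.31). Dimmer probe sets of Dlst above background differed by 0.46 and -0.13. Ogdh, the first enzyme of the oxoglutarate complex, differed by -0.22.

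The NAD-dependent isocitrate dehydrogenase, which sets the pace of the cycle, lay lower in all 3 subunits, and together with Mdh2 they had the most negative differences among the cycle enzymes. Idh3a, the catalytic alpha subunit, read 9.95, 10.01 and 10.28 in Flox and 9.09, 10.26 and 8.29 in Tead1KO. Replicates 1 and 3 of Tead1KO were below every Flox array, while replicate 2 stood among them. The log2 difference was -0.86 (SE 0.43, interval -1.86 to 0.13, limma adjusted p = 0.714). It was -0.40 without Tead1KO replicate 3 and -1.39 without Tead1KO replicate 2, where it passed (adjusted p = 0.0459, with a range of 0.0459 to 0.998 over 15 alternatives). Idh3b differed by -0.42 and Idh3g by -0.51, with the same order of the Tead1KO arrays. The next probe set of Idh3g, at 11.34 in Flox, differed by -0.17, and that of Idh3b by -0.31. Relative to the Flox mean, the median of the 3 subunits was -0.49, 0.18 and -1.23 in Tead1KO replicates 1 to 3. Further probe sets of Idh3a disagreed. One differed by -0.66, and a pair of others, at 6.90 and 7.70 in Flox, differed by 0.12 and 0.05.

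Succinate dehydrogenase, which is also complex II of the respiratory chain, lay slightly lower in all 4 subunits, by 0.11 to 0.35 on the log2 scale. Sdhb, the iron-sulfur subunit, read 11.15, 11.19 and 11.20 in Flox and 11.00, 11.07 and 10.42 in Tead1KO. Its arrays did not overlap, and replicate 3 was the farthest; the difference was -0.35 with all arrays and -0.15 without that replicate. Sdha, the flavoprotein subunit, differed by -0.12 (interval -0.38 to 0.13) at its brightest probe set and by 0.05 at the next. Sdhc and Sdhd, the membrane anchors, differed by -0.27 and -0.11, and both differences turned to positive values of 0.01 and 0.05 without Tead1KO replicate 3.

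Succinate-CoA ligase has a common alpha subunit, Suclg1, and beta subunits that make ATP (Sucla2) or GTP (Suclg2). Suclg1 read 10.99, 11.07 and 11.00 in Flox and 10.82, 10.85 and 10.58 in Tead1KO. All Tead1KO arrays were lower, by a small amount (difference -0.27, SE 0.14, adjusted p = 0.724). Sucla2 differed by -0.36 and Suclg2 by 0.07, and the arrays overlapped for both. Mdh2, the malate dehydrogenase of the cycle, differed by -0.54 at its brightest probe set. Its Tead1KO arrays read 11.65, 12.27 and 10.67 around Flox values of 11.97 to 12.21. Without Tead1KO replicate 3 the difference of Mdh2 was -0.11, that of Idh3b -0.12 and that of Idh3g -0.15. The next probe set of Mdh2, at 11.54 in Flox, differed by -0.08.

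Among the 11 members of anaplerosis and the shuttles, 0 passed, 10 lay lower and 1 higher in Tead1KO, with a median of -0.21. Glud1, glutamate dehydrogenase, which feeds oxoglutarate into the cycle, was the exception. Glud1 read 11.28, 11.22 and 11.15 in Flox and 11.41, 11.29 and 11.42 in Tead1KO. The groups were separate but close, and the difference was 0.16 (SE 0.12, interval -0.13 to 0.44, adjusted p = 0.781). Its other probe set differed by 0.18.

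Gpd2, the mitochondrial enzyme of the glycerol phosphate shuttle, read 10.46, 11.20 and 11.01 in Flox and 10.21, 10.84 and 9.09 in Tead1KO. The groups overlapped because Flox replicate 1 was low as well, and the difference was -0.85 (SE 0.41, interval -1.80 to 0.11, limma adjusted p = 0.707). Dimmer probe sets of Gpd2 above background differed by -0.45 and -0.72. Gpd1, the cytosolic enzyme and not a member, went the other way: it read 9.01, 9.10 and 8.997 in Flox and 9.88, 9.38 and 9.50 in Tead1KO. All Tead1KO arrays of Gpd1 were above the Flox arrays, and the difference was 0.55 (SE 0.17, limma adjusted p = 0.402). Dimmer probe sets differed by 0.48 and 0.21. Flox replicate 1, where acinar markers were low, was the lowest Flox array for most members, and the share over all genes was not counted. Among them were Gpd2, the aspartate aminotransferase Got1 (7.31 against 7.80 and 8.10) and the oxoglutarate carrier Slc25a11 (9.27 against 9.88 and 9.99). Acinar markers were as low in Tead1KO replicate 1. There Gpd2 (10.21) and Slc25a11 (9.65) lay between the other Tead1KO arrays, and Got1 (7.57) was the lowest of them. The part of acinar RNA in these values was not tested.

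The malate-aspartate shuttle is built from Mdh1, Mdh2, Got1, Got2, Slc25a11 and the aspartate-glutamate carriers Slc25a12 and Slc25a13. Mdh1, the cytosolic malate dehydrogenase, read 13.35, 13.55 and 13.39 in Flox and 13.31, 13.34 and 13.03 in Tead1KO. The groups were separated by a margin of hundredths, and the difference was -0.21 (adjusted p = 0.767). Further probe sets of Mdh1 above background differed by -0.17, -0.16, 0.35 and 0.03, each with overlapping arrays. Got1, Got2 and Slc25a11 overlapped between groups, with differences of -0.02, -0.13 and -0.07. The carrier Slc25a12, not a member, differed by -0.54 at its brightest probe set, with Tead1KO arrays between 6.28 and 8.50. Its other probe set above background differed by 0.04. Slc25a13 differed by 0.13. Neither carrier passed (limma adjusted p = 0.800 and 0.855).

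Several members make NADPH or export its precursors. Idh1, the cytosolic NADP-dependent isocitrate dehydrogenase, read 10.43, 10.29 and 10.36 in Flox and 10.03, 10.07 and 9.88 in Tead1KO. Every Tead1KO array was lower, and replicate 3 was the farthest. The means were 10.36 ± 0.07 and 10.00 ± 0.10 (SD, n = 3 each), with a log2 difference of -0.37 (SE 0.14, interval -0.68 to -0.05, limma unadjusted p = 0.0290, adjusted p = 0.572). It stayed between -0.40 and -0.31 when single arrays were left out. The dimmer probe set of Idh1 was within the background range in Tead1KO and gives no second reading. Idh2, its mitochondrial counterpart, differed by -0.35, and by -0.18 without Tead1KO replicate 3. Slc25a1, the citrate carrier, read 10.59, 10.76 and 10.70 in Flox and 10.50, 10.45 and 10.41 in Tead1KO. The Slc25a1 arrays were separate, by a small margin (difference -0.23, adjusted p = 0.754).

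Me1, the cytosolic malic enzyme, gave different pictures in its probe sets. The brighter one read 8.41, 7.86 and 8.10 in Flox and 7.74, 7.69 and 8.31 in Tead1KO, with overlapping groups and a difference of -0.21 (interval -0.74 to 0.32). The dimmer one read 7.44, 7.54 and 7.45 in Flox and 6.999, 7.004 and 6.93 in Tead1KO. There the groups were tight and separate, with a difference of -0.50 (SE 0.15, adjusted p = 0.600 over all probe sets). Which transcripts each probe set reads is unknown here.

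Outside the members, the only pathway gene that passed was Me3, the mitochondrial NADP-dependent malic enzyme. Of 28 measured genes of a list of further pyruvate and cycle genes, 1 rose, 0 fell and 27 did not pass, with a median of -0.21 and 0.335% of all genes called higher. Me3 read 6.26, 6.07 and 6.36 in Flox and 7.33, 7.54 and 7.37 in Tead1KO. The arrays of each group stood close together and about a log2 unit apart from the other group. Me3 rose from 6.23 ± 0.15 to 7.41 ± 0.11 (SD, n = 3 each), by 1.18 on the log2 scale (SE 0.16, limma adjusted p = 0.0261), or 2.27-fold. It was 1.20 without Tead1KO replicate 3 (adjusted p = 0.0237), but the call ended without Flox replicate 1, 2 or 3 (adjusted p = 0.139, 0.212 and 0.161) or Tead1KO replicate 1 (0.160), with median centring (0.0618) and with the replicate number as a block (0.0574). Me3 has 1 probe set here that carries its symbol alone.

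Nnt, the transhydrogenase that makes mitochondrial NADPH from NADH, split the Tead1KO arrays. It read 10.66, 10.45 and 10.71 in Flox and 8.81, 10.41 and 8.58 in Tead1KO. Replicates 1 and 3 lay far below the controls and replicate 2 beside them. The log2 difference was -1.34 (SE 0.43, limma adjusted p = 0.434), and without Tead1KO replicate 2 it was -1.92 and passed (adjusted p = 0.00397, with a range of 0.00397 to 0.998 over 15 alternatives). The next probe set read 8.03, 7.88 and 8.08 in Flox and 5.41, 8.18 and 4.63 in Tead1KO, the same split. The dimmest one, above background, did not show it. That probe set read 5.04, 5.37 and 5.33 in Flox and 5.11, 5.38 and 4.94 in Tead1KO (difference -0.10). As background, the J substrain of C57BL/6 mice carries a partial deletion of Nnt, and the labels give the strain without a substrain. The part of substrain in this split was not tested. 

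**Figure D2:**
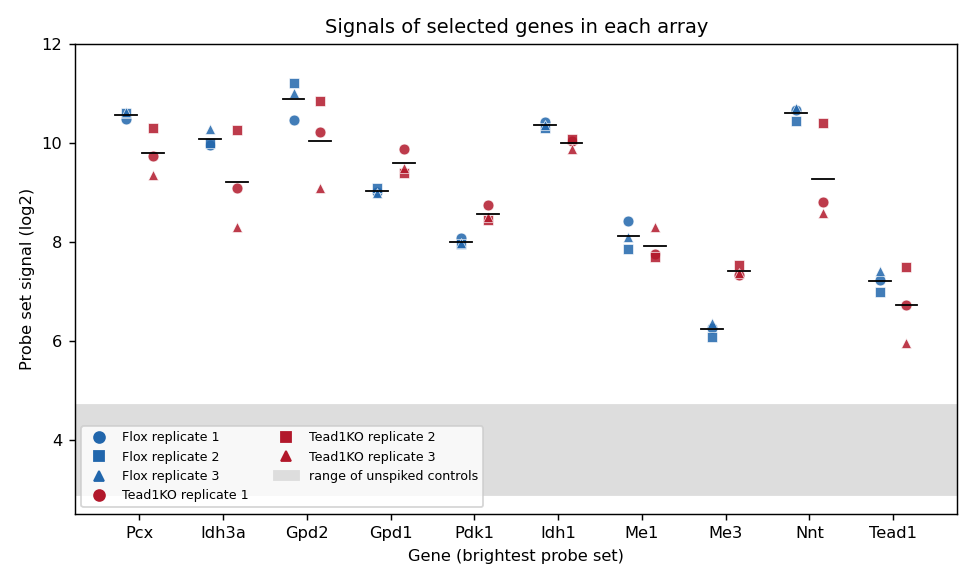
Probe set signal (log2, y axis) of 6 members (Pcx, Idh3a, Gpd2, Pdk1, Idh1, Me1), of Gpd1, Me3 and Nnt from the same pathways, and of Tead1; Flox arrays are blue and Tead1KO arrays red, marker shapes stand for the replicate number, black ticks mark the mean of a group, and grey shading spans the signals of bacterial controls that were not spiked in, 2.87 to 4.70. Me3 and Pdk1 have tight and separate groups, while the Tead1KO points of Idh3a, Gpd2, Nnt and Tead1 are spread with replicate 2 on top and replicate 3 at the bottom.

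The other named genes of that list did not pass. Acly, which cleaves exported citrate to acetyl-CoA in the cytosol, lay lower on all Tead1KO arrays at its brightest probe set (difference -0.35, adjusted p = 0.593). Further probe sets of Acly above background differed by -0.47, -0.19 and 0.22, and only the one at -0.19 had arrays that did not overlap. Mpc1, a subunit of the mitochondrial pyruvate carrier, differed by -0.69, with Tead1KO arrays at 9.28, 9.86 and 8.16 and a low Flox replicate 1 (9.24 against 10.11 and 10.02). Ldha, a lactate dehydrogenase that beta cells keep low, had means of 9.32 in Flox and 9.52 in Tead1KO islets, a difference of 0.20. Ldhb, at 10.23 and 9.93, differed by -0.30. Both Mpc1 and Ldha overlapped between groups, and Ldhb did not at its brightest probe set. Further probe sets of Ldhb differed by -0.71, -0.35 and -0.84, each with overlapping arrays.

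Anaplerosis and the shuttles were then set against the cycle enzymes. Their medians, -0.21 and -0.27, differed by 0.06. Taken array by array, the shuttle median minus the cycle median was 0.01, -0.15 and 0.04 in Tead1KO replicates 1 to 3, and -0.04, 0.02 and 0.00 in Flox replicates 1 to 3. The Tead1KO values thus lay on both sides of the Flox values, and the difference turned to -0.06 without Tead1KO replicate 3 and to -0.14 when all probe sets of a gene were averaged. In Tead1KO replicate 2 the median of the shuttle group was -0.09 against the Flox mean while that of the cycle enzymes was 0.06, and in replicates 1 and 3 they were close (-0.17 and -0.18, then -0.40 and -0.44). Pyruvate dehydrogenase and its kinases stood at 0.03, 0.24 and -0.27 in the 3 Tead1KO arrays.

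**Figure D3:**
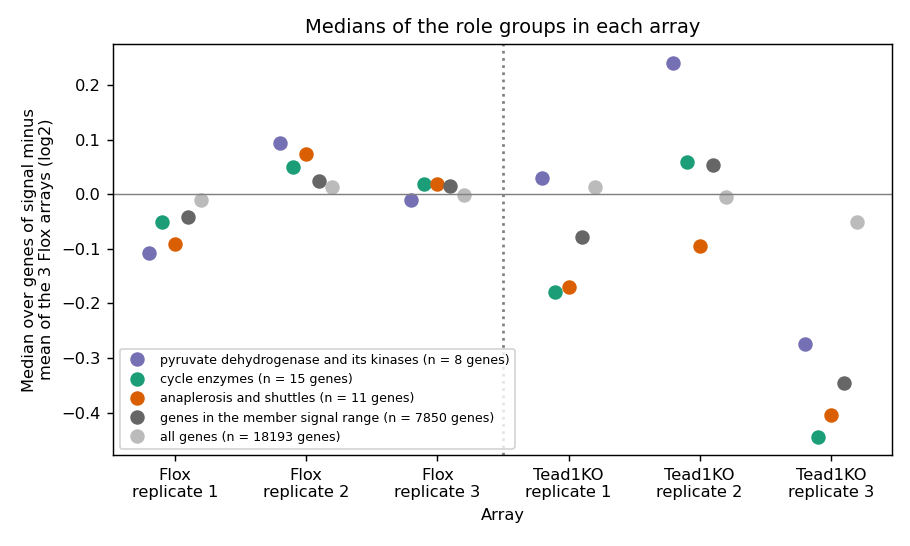
Median over the genes of each role group of the signal minus the mean of the 3 Flox arrays (log2, y axis) in each array (x axis), with the 7850 genes in the members' signal range and all 18193 genes for comparison. In Tead1KO replicate 3 the cycle enzymes are at -0.44 and the genes in the signal range at -0.35, and in Tead1KO replicate 2 the cycle enzymes are at 0.06.

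The size of most differences depended on single arrays. Tead1KO replicate 3 was the lowest of the 6 arrays in 25 members (73.5%), against 61.1% of genes in the members' signal range and 37.8% of all genes. In 22 members (64.7%) the Tead1KO arrays stood in the order replicate 3 below replicate 1 below replicate 2, as in 54.2% of genes in that range. Tead1 itself, the interquartile range and, turned around, the hybridization controls had this order as well. So did the mean signals of the beta, delta and PP, ductal, stromal and macrophage marker lists, but not those of the alpha, acinar and endothelial lists. The part of each in the members' values was not tested. Without Tead1KO replicate 3, 21 members lay lower and 13 higher, the median of the members was -0.09, and that of the genes in the signal range was -0.02. Without Tead1KO replicate 2, 29 lay lower, the median was -0.24, and 2 members passed, Pcx and Idh3a, where 1.67% of all genes did. With the hybridization controls as a covariate, 18 lay lower and 16 higher, and 0 passed, where 1.36% of all genes did. In that fit Pcx differed by -0.47, Idh3a by -0.25, Gpd2 by -0.23, Idh1 by -0.33 and Pdk1 by 0.51. Pdk1 and Idh1 thus stayed near their values in each of these fits, while Idh3a went to -0.40 and Gpd2 to -0.37 without replicate 3.

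**Figure D4:**
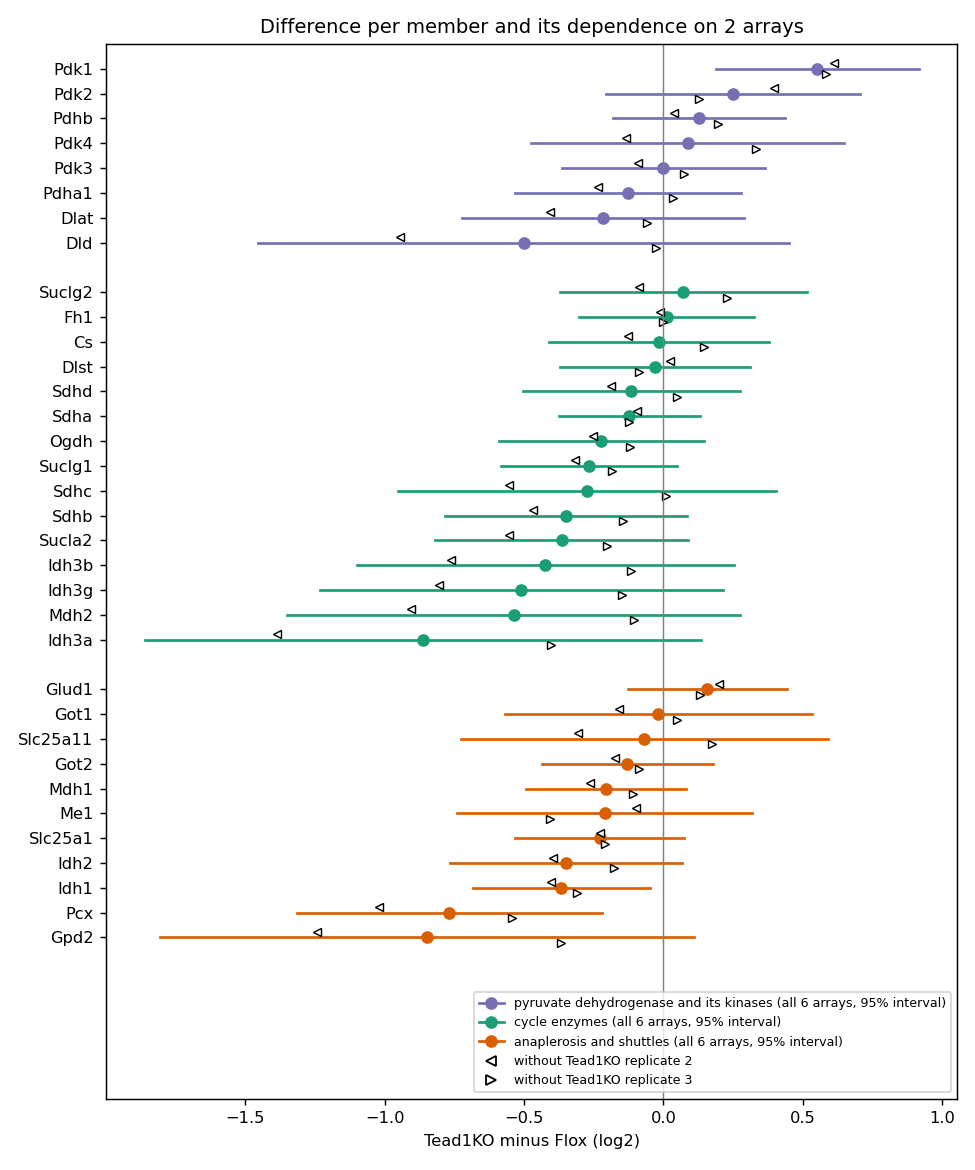
Log2 difference of each member, Tead1KO minus Flox (filled points, all 6 arrays, with 95% intervals from limma), and the same difference without Tead1KO replicate 2 or replicate 3 (open triangles pointing left and right). The triangles lie far apart for Idh3a (-1.39 and -0.40), Gpd2 and Dld, and close together for Pdk1 (0.61 and 0.58) and Idh1 (-0.40 and -0.31).

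Members were read by 77 probe sets in all. Beyond the brightest one, 31 further probe sets of 22 members lay above background in both groups, and 18 of these had the direction of the brightest. None of the 31 passed over all probe sets in limma, where the lowest unadjusted p was that of the dimmer Me1 probe set (0.00998). For 10 members a single probe set carried the symbol alone.

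Since the knocked-out gene encodes a DNA-binding factor, the promoters of the members were searched for its core motif. RefSeq promoter windows (GRCm38.p6, 250 bases before to 50 after a gene start) were at hand for 32 members, in 43 windows. The TEAD core GGAATG, on either strand, was found in windows of 3 members (9.38%), Me1, Pdk2 and Mdh1, against 16.6% of 27025 genes with a window. The stretches with a match are given in the direction of the gene, with the match in capitals.
Me1, chr9:86687286-86687371, minus strand: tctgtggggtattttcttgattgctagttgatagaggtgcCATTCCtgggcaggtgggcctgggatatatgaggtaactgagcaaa
Pdk2, chr11:95040966-95041051, minus strand: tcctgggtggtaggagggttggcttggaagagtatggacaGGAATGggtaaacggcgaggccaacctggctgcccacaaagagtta
Mdh1, chr11:21571903-21571932, minus strand: ttagcactgtcaGGAATGcacgaaggtggg
The match began 54 bases before a start of Me1, 136 bases before a start of Pdk2 and at base 15 after that of Mdh1. None of these members passed the test. For the motif AAGGTCA, bound by estrogen-related receptors that control many cycle genes, 3 members had a match (Got1, Ogdh and Sdhd), 9.38% against 5.38% of genes. The E-box CACGTG was found for 4 members (Ogdh, Pcx, Pdk2 and Slc25a1), 12.5% against 8.09%. Both strands were searched for each motif, no motif contains another, and a match is a description of letters, not a bound site.

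The windows of Pcx and Pdk1, the members with the lowest unadjusted p on either side, held no TEAD core. The 100 bases before each annotated start are given for reference, since each gene has a pair of starts and the arrays do not tell them apart.
Pcx, chr19:4510372-4510471, plus strand: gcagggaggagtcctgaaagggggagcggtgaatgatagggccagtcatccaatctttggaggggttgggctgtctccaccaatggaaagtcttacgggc
Pcx, chr19:4594219-4594318, plus strand: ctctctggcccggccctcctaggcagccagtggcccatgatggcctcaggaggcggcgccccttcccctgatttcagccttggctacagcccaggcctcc
Pdk1, chr2:71873124-71873223, plus strand: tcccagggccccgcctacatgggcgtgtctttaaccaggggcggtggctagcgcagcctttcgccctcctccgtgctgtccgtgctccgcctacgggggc
Pdk1, chr2:71874804-71874903, plus strand: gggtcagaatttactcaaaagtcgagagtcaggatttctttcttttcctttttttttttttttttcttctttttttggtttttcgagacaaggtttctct
The absence of the letters in a window says nothing of binding elsewhere.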

How the data were processed

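Each of 6 Affymetrix arrays has 1 deposited log2 signal per probe set. Per the submitters' processing notes, the authors used Expression Console; which version, background correction and normalization is unknown here. That the scale is log2 follows from the range, 2.75 to 15.71. No scanner files were used.

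Of 45101 probe sets, 64 controls were left out, and 34945 carried 1 gene symbol. The brightest probe set per gene gave 18193 genes. Values were used as deposited. Groups were compared with limma 3.58.1 in R 4.3.3 (lmFit, eBayes with trend=TRUE, no covariate), two-sided, with Benjamini-Hochberg adjustment over all genes and a threshold of 0.05. The code of the fit was run on simulated data with noise drawn separately for each value. Shifts shared by many genes of an array were not simulated, so that run does not test the calls against them. Background is the range of 27 unspiked bacterial control probe sets, 2.87 to 4.70. All members lay above it in both groups. For arrays, their number limits the precision.

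The members, gene lists, tests, alternatives and the rule for named genes (every member, the 6 other pathway genes with the smallest p, and a fixed few) were chosen with earlier results of these data known. Idh3a and the dimmer Me1 probe set are described array by array after their values were seen, as are several further members. Listed genes without a single-symbol probe set were not analysed here. The alternatives were another normalization (quantile, median centring), no variance trend, averaged probe sets, probe sets without _x_at or _s_at suffix, no dim genes, every probe set tested, hybridization controls as a covariate, the replicate number as a block, and each array left out. Further marker lists (delta and PP, ductal, endothelial, stromal, macrophage cells) held 0 genes that passed, of 3, 4, 6, 6 and 6 measured.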

Additional observations from a re-analysis of the deposited data

How the results depend on the processing

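With 3 arrays a group, differences of the size seen in most members could not be told from the spread. No member passed with any of the alternatives except without Tead1KO replicate 2, so the count of members that passed ran from 0 to 2 when single arrays were left out. The count over all genes was 94, with 151 after quantile normalization, 58 after median centring, 247 with the hybridization controls as a covariate and 12 to 303 when single arrays were left out. It was 20, 18 and 17 without Flox replicates 1 to 3, and 12, 303 and 177 without Tead1KO replicates 1 to 3. The median of the members ran from -0.24 to -0.09 without single arrays, that of the cycle enzymes from -0.32 to -0.12, that of pyruvate dehydrogenase and its kinases from -0.11 to 0.10, and that of the shuttle group minus the cycle enzymes from -0.0594 to 0.0556. The cycle median was -0.0736 with averaged probe sets and -0.0707 with the controls as a covariate, and the difference of the group medians was then -0.14 and -0.12. Of 509 values of members under alternatives, 462 kept direction and side of the threshold, 45 changed sign and 2 passed; 20 members never changed sign. Idh1 has no value without _x_at and _s_at probe sets. With quantile normalization Cs was 0.12, Dlst 0.11, Sdhd 0.022, Pdha1 0.012, Pdk3 0.13, Got1 0.10 and Slc25a11 0.073. With the controls as a covariate Cs was 0.11, Dld 0.10, Sdhc 0.14, Sdhd 0.040, Pdha1 0.015, Dlat 0.053, Pdk3 0.084, Got1 0.21, Slc25a11 0.32 and Slc25a12 0.24. With averaged probe sets Cs was 0.053, Dlst 0.10 and Sdha 0.055, and Sdha was 0.047 without _x_at and _s_at probe sets. With median centring Fh1 was -0.050. Without single arrays Cs ran from -0.13 to 0.14, Dlst from -0.10 to 0.043, Suclg2 from -0.088 to 0.23, Sdhc from -0.55 to 0.0098, Sdhd from -0.21 to 0.050, Fh1 from -0.037 to 0.10 and Pdha1 from -0.23 to 0.033. Likewise Pdk3 ran from -0.090 to 0.073, Pdk4 from -0.14 to 0.33, Got1 from -0.23 to 0.16, Slc25a11 from -0.31 to 0.17, Ldha from -0.032 to 0.36 and Slc25a12 from -1.08 to 0.029. The cause of these changes was not tested. Between arrays of equal replicate number, the correlations of deviations from the group means were 0.06, 0.30 and -0.17. Unequal numbers gave -0.39 to 0.33. These values do not settle whether arrays of equal number were processed together. With the replicate number as a block 97 genes and 0 members passed, and Me3 did not (adjusted p = 0.0574).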
